A study of Mus musculus with 6 samples.

Results

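Lipid droplets store triglyceride behind a single layer of phospholipid and coat proteins, and 10 genes of that coat and of triglyceride breakdown were followed here out of 38828 genes and unmatched rows in the deposited counts. The 10 were chosen by name as a family and looked up by symbol: the coat proteins Plin2, Plin3 and Cideb, the lipolysis inhibitors Hilpda and G0s2, the lipases Pnpla2 and Mgll with the co-activator Abhd5, and the droplet-forming proteins Fitm2 and Bscl2. All 10 matched the annotation, and 8 of them passed the filter on low counts and were tested. The cells were Hepa1-6, a hepatoma line of the mouse used as a liver cell model, grown in high-glucose medium with serum, and total RNA was sequenced. The control group (Luc siRNA) was 3 libraries from cells given siRNA against Renilla luciferase, a transcript absent from mouse cells, and the other group (Crebl2 siRNA) was 3 libraries from cells given siRNA against Crebl2, a basic leucine zipper protein. Both groups were transfected with the same lipid reagent and kept for 3 days. Nothing in the labels states that the 3 libraries of a group were separate cultures, and p-values therefore reflect library-to-library spread that may be technical.

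In droplet biology, perilipins cover the droplet surface and limit access of lipases to the stored fat. Triglyceride is cleaved in order by adipose triglyceride lipase (encoded by Pnpla2), hormone-sensitive lipase and monoglyceride lipase (Mgll). The first step is stimulated by Abhd5 (CGI-58) and blocked by the small proteins G0s2 and Hilpda, while seipin (Bscl2) and Fitm2 act in the endoplasmic reticulum where droplets form. Hepatocytes express little of the main fat-cell perilipin and rely on Plin2, Plin3 and Plin5.

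Libraries held 27082572 to 29158489 counts. Crebl2 itself fell from 113 ± 0.858 to 30.4 ± 1.69 CPM (TMM-scaled counts relative to library size; SD, n = 3 each; log2 fold change -1.90, edgeR adjusted p = 5.75e-14), with no overlap between groups. Of 11616 genes tested, 39.2% were called by edgeR at an adjusted p under 0.05, 18.9% higher and 20.3% lower. With library size alone as the scaling, 58.7% of calls were upward, against 48.1% with the TMM scaling used here, and the median log2 fold change of all genes moved from 0.0052 to 0.054. The Crebl2 siRNA library of replicate 2 stood apart in 1 respect, with 0.859% of counts on mitochondrial genes against 2.09 to 2.52% in the other 5. Of 10 hepatocyte markers, albumin (Alb) was well counted at 581 ± 29.2 CPM and transferrin (Trf) at 178 ± 16.3 CPM in controls (SD, n = 3 each). Apoa1, Ttr, Apob and Apoh were each under 1 CPM, and Hnf4a and Serpina1a were at 0, read through 6 and 221 bases that no other deposited row shares. The 5 tested hepatocyte markers all had negative log2 fold changes, as had 5674 of all 11616 genes tested. Called lower were 3 of the 5, beside 20.3% of all genes tested. Those 3 were Fgb (-1.41), Foxa3 (-0.81) and Trf (-0.42), while Alb (-0.11) did not pass. The summed level of the 10 ran from 840 to 919 CPM in controls and from 705 to 777 CPM after Crebl2 siRNA. The part of that difference in the results below was not tested.

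Within the family, expression of the lipase Pnpla2 and the lipase inhibitor Hilpda fell, and no member rose, except that Fitm2 was called higher with library size alone as the scaling. The Hilpda call was lost without Luc siRNA replicate 3 or without Crebl2 siRNA replicate 2, and Plin3 was called lower in 2 of 14 alternative settings. After Crebl2 siRNA the level of Pnpla2 fell by 28.6% and that of Hilpda fell by 15.6%, both with groups that did not overlap. In bulk RNA, fewer cells expressing a gene and less of its RNA per cell cannot be told apart. The coat genes Plin2 and Plin3, the co-activator Abhd5, the inhibitor G0s2 and the droplet-forming genes Fitm2 and Bscl2 did not pass the test. Calls were thus made for 2 of 8 tested members, beside 39.2% of all genes tested. The median log2 fold change of the 8 was -0.01, against 0.0052 over all genes tested, and 4 were positive and 4 negative. Groups did not overlap for 3 of the 8 (Pnpla2, Hilpda and Fitm2), against 48.8% of all genes.

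**Figure D1:**
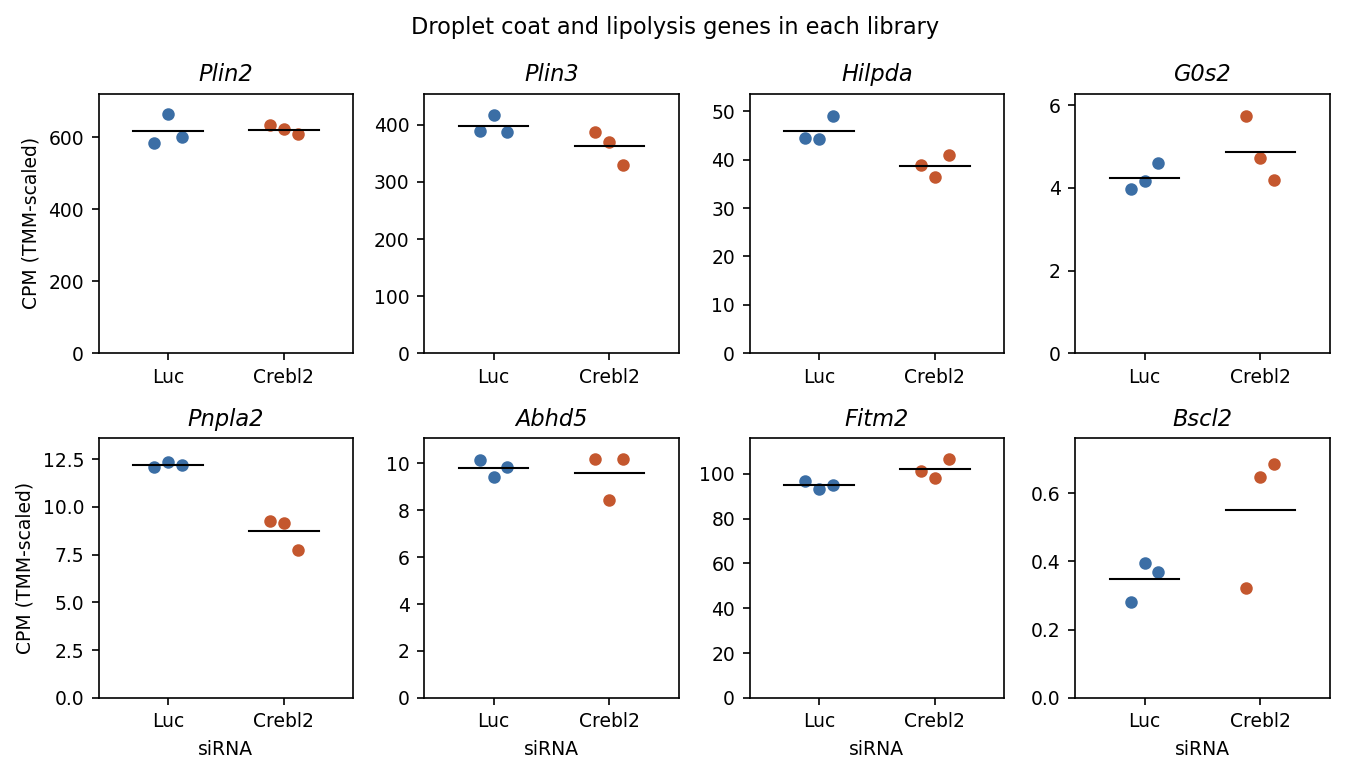
Expression of the 8 tested genes in each library, in TMM-scaled CPM on linear axes that start at 0, with a separate axis for each gene; points are the 3 libraries of a group and horizontal lines their means. The Pnpla2 points lie between 12.1 and 12.4 CPM with Luc siRNA and between 7.75 and 9.24 CPM with Crebl2 siRNA, whereas the Plin2 points of the groups intermingle.

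The deposited counts are per transcript and, judging by rows without any base of their own, exclude reads that fall on more than 1 transcript. Those 9603 rows held 0.0235% of all counts. A gene is therefore seen only through the bases that no other deposited transcript shares on either strand. Plin2 (chromosome 4, 86648386 to 86670060, minus strand, GRCm38) has 1888 such bases and Plin3 (chromosome 17, 56277476 to 56292873, minus strand) has 3645, in each case the whole of their only row. Pnpla2 (chromosome 7, 141455198 to 141460743, plus strand) was read through 826 bases of a 2625-base transcript, of which 649 lie in the 3′ UTR and 168 are coding. A shorter Pnpla2 transcript of 1799 bases has no base of its own and was at 0. Hilpda (chromosome 6, 29272488 to 29275446, plus strand) drew 98.4% of its counts from 1 row, through 185 bases of 5′ UTR and 260 of 3′ UTR. The values of Pnpla2 and Hilpda thus come largely from untranslated exonic sequence of the longer model, and the shorter Pnpla2 transcript cannot be seen in these counts.

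Levels can be compared between genes only per length, taken here as CPM per kilobase of unique bases. In control libraries Plin2 was the highest member at 309 to 351 CPM per kilobase, above 98.6% of 11148 tested genes with at least 200 unique bases. Plin3 followed at 106 to 114 and Hilpda at 78.3 to 86.7 CPM per kilobase. These 3 genes for droplet surface proteins stood above 89.8% or more of the ranked genes. Fitm2 lay at 24.9 to 25.8, Abhd5 at 16.2 to 17.4 and Pnpla2 at 14.6 to 14.97 CPM per kilobase, above 69.3, 60.7 and 58.1% of the ranked genes. G0s2 was at 4.55 to 5.30, Bscl2 at 0.893 to 1.26 and Cideb at 0 to 0.305 CPM per kilobase. No neighbours in this order overlapped in the 3 control libraries, and the order was the same by group mean after Crebl2 siRNA. The unique bases lie in different parts of the transcripts, 459 of 581 coding in Abhd5 and 649 of 826 in the 3′ UTR in Pnpla2. Spread between libraries does not take this in, so the order of close neighbours such as these is not settled. Hilpda and Bscl2 were read through no coding base, so their places in the order are not settled either.

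Among the lipolysis genes, Pnpla2, which encodes the enzyme of the first step of triglyceride breakdown, had 344, 345 and 330 counts in the control libraries and 258, 254 and 215 after Crebl2 siRNA. In CPM these were 12.1, 12.4 and 12.2 against 9.24, 9.15 and 7.75. All 3 Crebl2 siRNA libraries lay below all controls, and the controls were nearly level with each other. The means were 12.2 ± 0.152 and 8.71 ± 0.833 CPM (SD, n = 3 each). On the log2 scale the change was -0.49 (SE 0.0974, 95% interval -0.69 to -0.28; edgeR adjusted p = 0.000583). This call was made in all 14 alternative settings run, with log2 fold changes from -0.53 to -0.41.

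Abhd5 (chromosome 9, 122351608 to 122381524, plus strand), the co-activator of that lipase, had 289, 263 and 267 counts in controls and 284, 234 and 282 after Crebl2 siRNA. In CPM the controls spanned 9.42 to 10.1 and the Crebl2 siRNA libraries 8.43 to 10.2, so the groups overlapped. Its log2 fold change was -0.03 (95% interval -0.25 to 0.18; edgeR adjusted p = 0.837), an interval with room on both sides of 0. The monoglyceride lipase gene Mgll (chromosome 6, 88724412 to 88828360, plus strand) had 0 counts in all 6 libraries, which allows up to 3 counts in each. Only 2 of its 6 rows have bases of their own, 669 in all, so its other transcripts are not seen in these counts.

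Of the inhibitor genes, Hilpda, a hypoxia-inducible inhibitor of the Pnpla2 product, had 44.5, 44.3 and 49.1 CPM in controls and 39.0, 36.3 and 40.9 CPM after Crebl2 siRNA. Every Crebl2 siRNA library lay below every control, and the highest control was replicate 3. On the log2 scale the change was -0.25 (SE 0.0668, 95% interval -0.39 to -0.11; edgeR adjusted p = 0.00657). The call was lost without control replicate 3 (-0.20, edgeR adjusted p = 0.0605) and without Crebl2 siRNA replicate 2, the library with the low mitochondrial share (-0.20, edgeR adjusted p = 0.0686). It was made in the other 12 of 14 settings. Its second row, a shorter transcript that begins further upstream, had 24, 17 and 15 counts in controls and 25, 20 and 13 after Crebl2 siRNA, and its log2 fold change of 0.052 had a SE of 0.315.

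G0s2 (chromosome 1, 193272161 to 193273217, minus strand), the other inhibitor, had 3.96, 4.16 and 4.61 CPM in controls and 5.73, 4.72 and 4.18 CPM after Crebl2 siRNA. The lowest Crebl2 siRNA library lay inside the control range. Its log2 fold change of 0.20 had a 95% interval from -0.09 to 0.50 (edgeR adjusted p = 0.276), on 354 control counts and 407 after Crebl2 siRNA. The value was 0.072 without Crebl2 siRNA replicate 1 and 0.30 without Crebl2 siRNA replicate 3, and neither passed.

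Because a ratio of 2 genes within a library does not depend on scaling, 4 such ratios were compared between groups. The log2 ratio of Pnpla2 to G0s2 counts was 1.61, 1.57 and 1.40 in controls and 0.69, 0.96 and 0.89 after Crebl2 siRNA, a difference of -0.68. That of Pnpla2 to Abhd5 was 0.25, 0.39 and 0.31 in controls and -0.14, 0.12 and -0.39 after Crebl2 siRNA, a difference of -0.45. For both, every Crebl2 siRNA library lay below every control. The two-sided exact permutation p was 0.1 for each, the smallest that 3 against 3 libraries allow, and 0.133 after adjustment over the 4 ratios. The Pnpla2 to Hilpda ratio overlapped between groups (difference -0.24, two-sided exact permutation p = 0.2), so a larger fall of Pnpla2 than of Hilpda was not shown. Without Crebl2 siRNA replicate 3 that difference was -0.12.

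**Figure D2:**
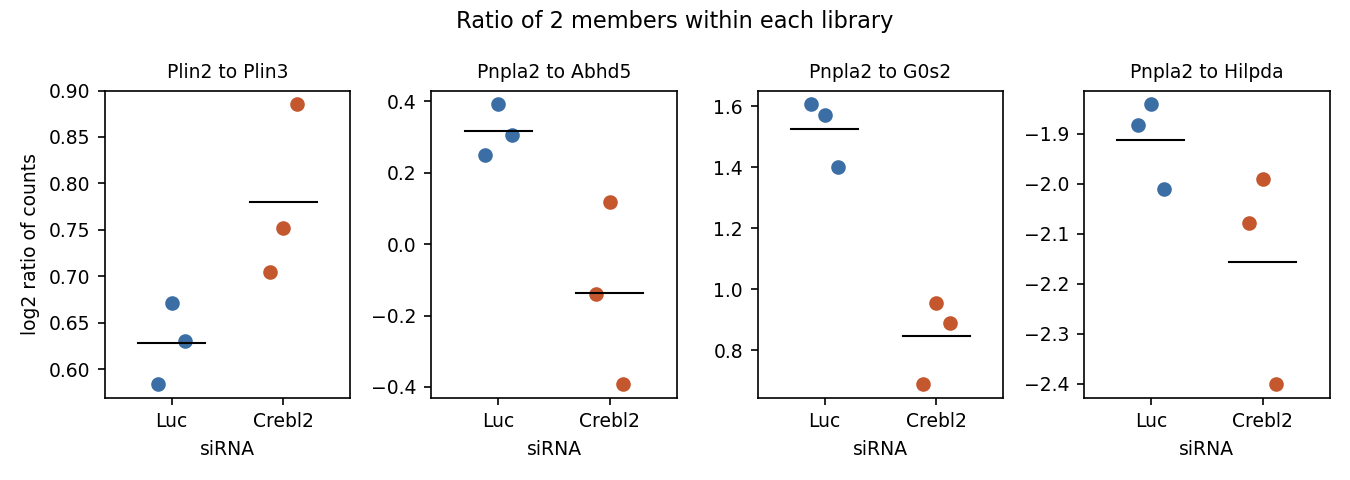
Log2 ratios of the counts of 2 genes in each library, with a separate vertical axis for each pair; points are the 3 libraries of a group and lines their means. The Pnpla2 to G0s2 ratio runs from 1.40 to 1.61 with Luc siRNA and from 0.69 to 0.96 with Crebl2 siRNA, and the Pnpla2 to Hilpda ratios of the groups overlap.

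Of the coat genes, Plin2, the main perilipin of liver cells, had 584, 663 and 600 CPM in controls and 632, 623 and 607 CPM after Crebl2 siRNA. The Crebl2 siRNA libraries all lay within the range of the controls. Its log2 fold change was 0.012 (SE 0.0508), with a 95% interval from -0.09 to 0.12 (edgeR adjusted p = 0.881). Plin3, a perilipin that also occurs free in the cytosol and moves onto new droplets, had 389, 417 and 388 CPM in controls and 388, 370 and 329 CPM after Crebl2 siRNA. The highest Crebl2 siRNA library reached the lowest control. The change in Plin3 was -0.14 in log2 (SE 0.0567, unadjusted 95% interval -0.25 to -0.016; edgeR adjusted p = 0.0666). It was called lower without Crebl2 siRNA replicate 1 (-0.19, edgeR adjusted p = 0.00802) and with no filter on low counts (-0.14, edgeR adjusted p = 0.0377), 2 of 14 settings. Its change was smaller without Crebl2 siRNA replicate 3 (-0.070, edgeR adjusted p = 0.2315) and with library size alone as the scaling (-0.086, edgeR adjusted p = 0.2414).

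The log2 ratio of Plin2 to Plin3 counts was 0.58, 0.67 and 0.63 in controls and 0.70, 0.75 and 0.88 after Crebl2 siRNA. The groups did not overlap, and the difference of 0.15 had a two-sided exact permutation p of 0.1, the smallest possible (0.133 adjusted over the 4 ratios). Without Crebl2 siRNA replicate 3 the difference was 0.0995. Cideb (chromosome 14, 55754050 to 55758458, minus strand), a liver member of the CIDE family that acts in droplet growth and lipoprotein lipidation, was not tested. It had 2, 3 and 0 counts in controls and 5, 3 and 2 after Crebl2 siRNA, a ratio of 2.07 with a 95% exact binomial interval of 0.645 to 7.72. Such intervals and limits take in counting error alone, because the reads carry no molecular identifiers.

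Of the droplet-forming genes, Fitm2 (chromosome 2, 163466379 to 163472629, minus strand), which encodes a triglyceride-binding protein of the endoplasmic reticulum, had 96.6, 93.1 and 95.2 CPM in controls and 101, 97.9 and 107 CPM after Crebl2 siRNA. All 3 Crebl2 siRNA libraries lay above the controls, by a small margin. Its log2 fold change was 0.10 (SE 0.0531, 95% interval -0.0086 to 0.21; edgeR adjusted p = 0.137). With library size alone as the scaling it was called higher (0.15, edgeR adjusted p = 0.0272), the setting that also moved the median of all genes upward.

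Bscl2 (chromosome 19, 8837467 to 8848683, plus strand) encodes seipin, which organises the neck between the endoplasmic reticulum and a growing droplet. It had 8, 11 and 10 counts in controls and 9, 18 and 19 after Crebl2 siRNA, from 314 unique bases spread over 3 of its 4 rows. The counts came from 248 bases of 5′ UTR in the row with most counts and 50 in the next. No coding base of the gene is unique to a row, so most of its sequence is not seen in these counts. The lowest Crebl2 siRNA library lay among the controls. The log2 fold change of 0.66 had a 95% interval from -0.13 to 1.46 (edgeR adjusted p = 0.182). That interval takes in 0 as well as values above 1, so a change of Bscl2 was not detectable from the few counts on these bases.

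**Figure D3:**
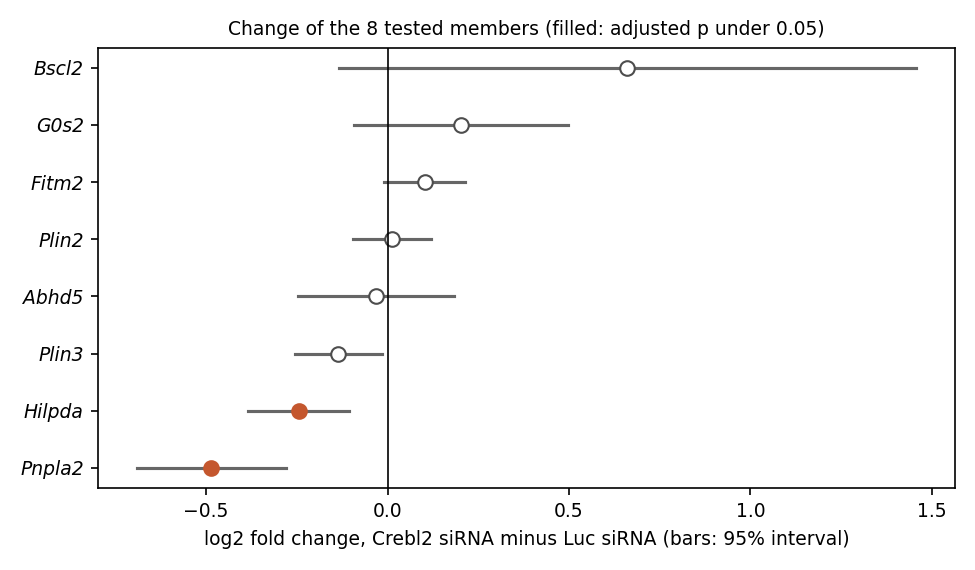
Log2 fold changes of the 8 tested genes, Crebl2 siRNA minus Luc siRNA, with 95% intervals from the edgeR fit; filled points passed an adjusted p under 0.05. Pnpla2 (-0.49) and Hilpda (-0.25) lie below 0 with their whole intervals, as does Plin3 (-0.14), whose adjusted p did not pass since the intervals are not adjusted for the number of genes, and the Bscl2 interval is the widest.

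**Figure D4:**
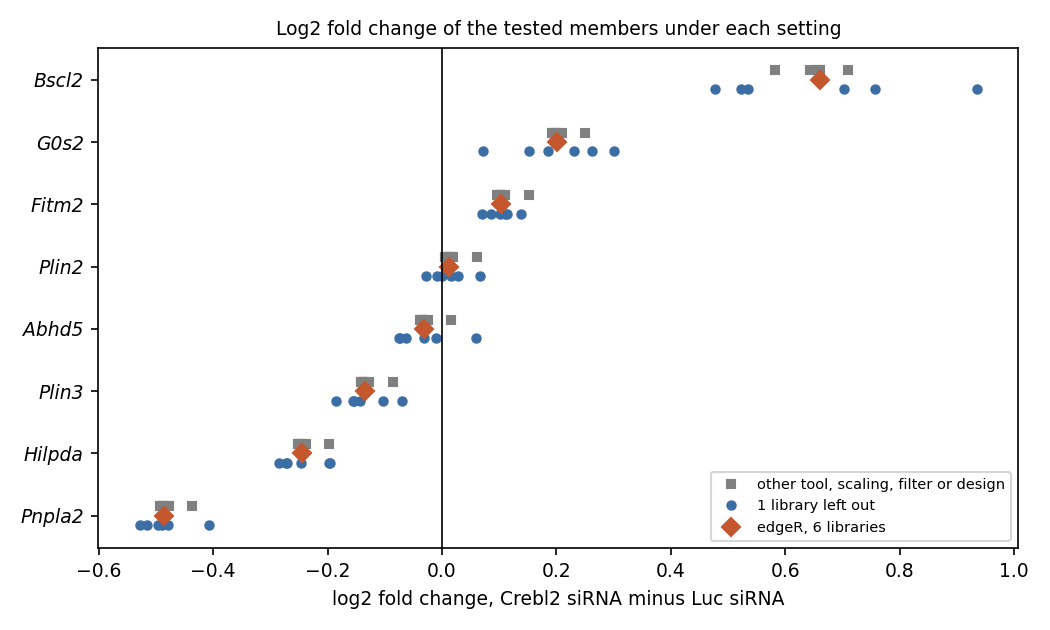
Log2 fold changes of the 8 tested genes with all 6 libraries (diamonds), with another tool, scaling, filter or design (squares) and with 1 library left out (circles). Pnpla2 and Hilpda stay below 0 in every setting shown, and the Plin2 and Abhd5 values lie on both sides of 0.

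Upstream sequence is shown for the called genes, Pnpla2 and Hilpda. The siRNA target Crebl2 encodes a protein of the CREB-related leucine zipper family, and Hilpda is a textbook hypoxia target. Both stretches are the 120 bases before the RefSeq start site, GRCm38.p6, plus strand, chr6:29272506-29272625 for Hilpda and chr7:141455068-141455187 for Pnpla2. The Hilpda start is that of the row with nearly all its counts, and the Pnpla2 start lies 10 bases before that of its row. Capitals mark the cyclic AMP response core TGACG and the hypoxia response core ACGTG.
Hilpda: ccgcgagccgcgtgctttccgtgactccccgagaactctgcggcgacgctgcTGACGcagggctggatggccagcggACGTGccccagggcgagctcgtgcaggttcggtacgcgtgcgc
Pnpla2: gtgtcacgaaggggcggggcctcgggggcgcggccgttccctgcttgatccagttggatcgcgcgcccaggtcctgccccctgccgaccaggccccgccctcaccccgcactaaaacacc
In Hilpda the TGACG begins 68 bases and the ACGTG 43 bases before the start, while the Pnpla2 stretch holds neither on either strand.

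Over whole RefSeq windows, from 250 bases before to 50 after a start, both strands were searched in 32851 windows. The full cyclic AMP response element TGACGTCA was in 1.79% of all windows and in those of 0 of the 10 genes. Its core TGACG, which the full element contains, was in 20.8% of windows and in those of 4 genes (Hilpda, G0s2, Abhd5 and Mgll). The hypoxia core ACGTG was in 19.6% of windows and in those of Plin2, Hilpda and Mgll. The E-box CACGTG, which contains that core, was in 7.15% of windows and in those of Plin2 and Mgll. In Plin2, the most highly counted member, this E-box lies across the start site, at chr4:86670047-86670074 on the minus strand (capitals).
Plin2: agctgggctatCACGTGgctcggaggct
The PPAR element made of 2 copies of AGGTCA with 1 base between them was in 0.0396% of windows and in those of 0 members. Hilpda, Mgll and Bscl2 have more than 1 window, and a match describes letters, not binding.

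A 7-base word, GAAATGT, reported earlier for the lowered genes of these same data, is commoner in the annotated 3′ UTRs of those genes. Its excess there is therefore not a new test. Of 2212 lowered genes searched 30.3% held it, against 18.5% of 5764 that were not called and 13.2% of 1909 that rose. Median 3′ UTR lengths were 1439, 1088 and 1068 bases, and the shares are not adjusted for them. Over all 9885 tested genes searched, 1988 (20.1%) held the word, of which 671 were lowered, 1065 not called and 252 raised. None of the 10 droplet genes, Pnpla2 and Hilpda included, holds it in an annotated 3′ UTR of the deposited transcripts.

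Of 96 further genes of droplet formation, lipolysis and their regulation, 59 were tested and 25 were called, 9 higher and 16 lower, which is 42.4% against the 39.2% of all genes. Their median log2 fold change was -0.05. Of the 37 not tested, 12 have fewer than 200 bases of their own, and 20 were at 0 in every library. Those at 0 include the other perilipins Plin1, Plin4 and Plin5 and the fat-cell CIDE protein Cidec. Of these Plin1 has 2002 unique bases, Plin5 has 202, Cidec 52 and Plin4 43. The marker list of fat cells was at 0 for 6 of 10 genes (Adipoq, Plin1, Plin4, Cidec, Fabp4 and Lep). Its summed level, 625 to 658 CPM in controls and 1043 to 1161 CPM after Crebl2 siRNA, was nearly all Lpl.

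In the list of droplet surface and biogenesis genes, 6 of 22 tested fell and 1 rose, beside 20.3% lower and 18.9% higher of all genes tested. Those lowered were the droplet-associated ubiquitin pathway proteins Faf2 (log2 fold change -0.18) and Aup1 (-0.23), and 4 others. The phosphatidate phosphatase Lpin2 changed by -0.32, the membrane contact protein Mospd2 by -0.45, the phosphoinositide-binding droplet protein Zfyve1 by -0.25 and the acyl-CoA synthetase Acsl3 by -0.66. Acsl3 rested on about 1 CPM and was called in 8 of 14 alternative settings. Faf2 lost its call without Crebl2 siRNA replicate 2 (edgeR adjusted p = 0.0650). Dgat2, which makes the last step of triglyceride synthesis, rose from 5.10 ± 0.139 to 7.11 ± 0.456 CPM (SD, n = 3 each; 0.48). The other acyltransferase, Dgat1, had a log2 fold change of -0.08 that did not pass. Of the 22 tested, 4 hold the word GAAATGT in their 3′ UTRs, beside 20.1% of all tested genes searched. They are the lowered Faf2, Acsl3 and Lpin2 and the uncalled Hsd17b11, beside 671 lowered of the 1988 holders among all tested genes. As the word was reported earlier for the lowered genes of these same data, this tally is not a new test, nor is it adjusted for 3′ UTR length. The part of the word in the falls was not tested.

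Among lipases and cofactors, 6 of 17 tested rose and 2 fell, beside the same 18.9% higher and 20.3% lower of all genes. Lipoprotein lipase (Lpl), which frees fatty acids from circulating lipoproteins, had 657, 623 and 642 CPM in controls and 1059, 1041 and 1160 CPM after Crebl2 siRNA. The groups did not overlap (log2 fold change 0.76, SE 0.0495, edgeR adjusted p = 8.92e-10). Mttp, which loads lipid onto apolipoprotein B, rose from 2.93 ± 0.321 to 6.23 ± 0.597 CPM (SD, n = 3 each; 1.09). The lysophospholipase Pnpla7 rose by 0.44, the fatty acid-binding protein Fabp5 by 0.41 and the acyl-protein thioesterase Lypla1 by 0.31 on the log2 scale. Pnpla6, a paralogue of Pnpla7, was higher by 0.51 but was called in 7 of 14 alternative settings. Abhd6, another monoglyceride lipase, was at 5.75 ± 0.0961 CPM in controls and fell to 4.004 ± 0.223 CPM (SD, n = 3 each), a log2 fold change of -0.52. The word GAAATGT is in the 3′ UTRs of 3 of the 17, beside 20.1% of all tested genes searched. They are the lowered Abhd6 and the uncalled phospholipases Ddhd1 and Ddhd2. The endothelial lipase Lipg changed by -0.63 and was called in 9 of 14 alternative settings. Hormone-sensitive lipase (Lipe), the enzyme after Pnpla2 in the pathway, was at 1.43 ± 0.193 and 1.44 ± 0.512 CPM (SD, n = 3 each), with a log2 fold change of 0.013 (SE 0.245).

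Among regulators, 8 of 20 tested fell and 2 rose, beside 20.3% lower and 18.9% higher of all genes. Not all these calls held: the fall of Ppargc1a was called in 2 of 14 alternative settings and that of Foxo3 in 8. The rise of Srebf1, whose groups overlapped, was called in 9 of the 14. The 6 falls with the smallest p were in Epas1 (log2 fold change -1.32), which encodes HIF-2 alpha, Klf4 (-0.68), Cebpb (-0.46), the fatty acid receptor Ppard (-0.41), Srebf2 (-0.31) and the corepressor Irf2bp2 (-0.25). GAAATGT is held by 6 of the 20, beside 20.1% of all tested genes searched. Of the 6, 5 were lowered (Epas1, Ppard, Irf2bp2, Ppargc1a and Foxo3) and Creb1 was not called. Among all tested genes, 671 of the 1988 holders were lowered. The word was reported earlier for the lowered genes of these same data, so this tally is not a new test. It is not adjusted for 3′ UTR length. The part of the word in these falls was not tested. The catalytic AMP kinase subunit Prkaa2 rose by 0.32 on the log2 scale. Pparg and Ppara, the fat-cell and liver lipid receptors, were under 1 CPM in controls and did not pass.

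**Figure D5:**
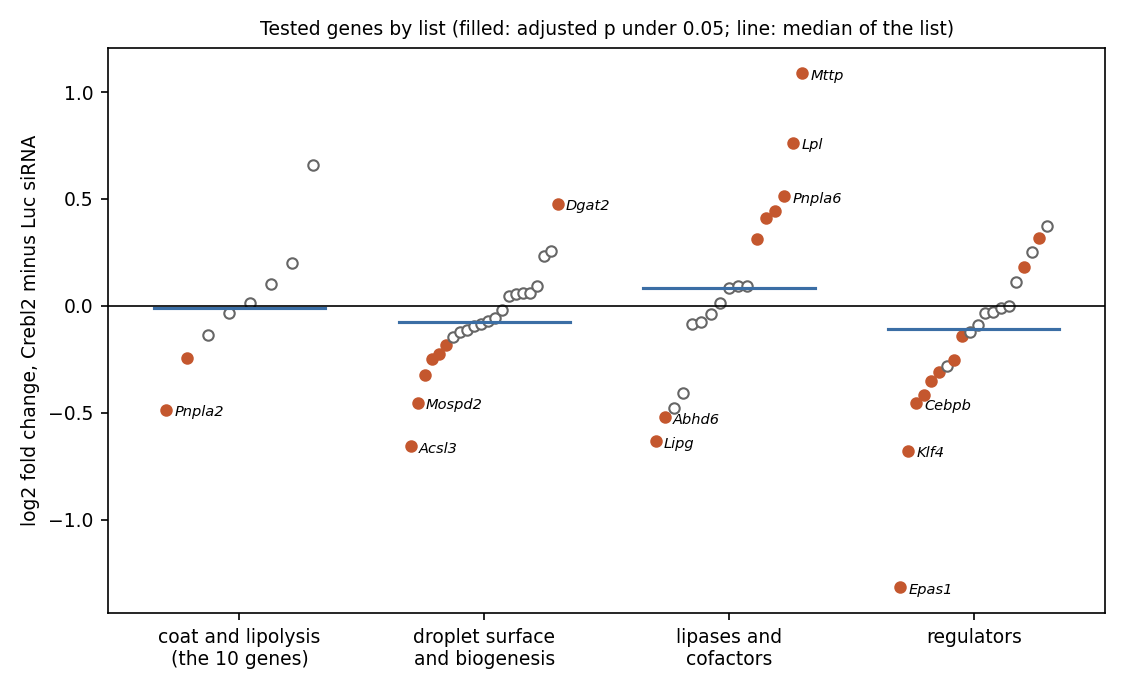
Log2 fold changes of all tested genes of the droplet family and of the 3 related lists, sorted within each list; filled points passed an adjusted p under 0.05 and the lines are list medians. Calls lie on both sides of 0 in the related lists, from Epas1 (-1.32) to Mttp (1.09), while in the family Pnpla2 and Hilpda were called with TMM scaling, both below 0.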

How the data were processed

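Each of the 6 deposited files holds whole-number read counts for 58611 Ensembl transcripts, with no normalisation by the authors visible in the values. Trim Galore, TopHat and HTSeq and the builds mm9 and GRCm38 are named, without roles or settings, per the submitters' processing notes; whether counting used strand is not stated in any source read here. Rows were matched to GENCODE M21 (GRCm38; 58264 of 58611) and summed per gene. Genes were tested across the whole table with edgeR 4.0.16 (R 4.3.3): filterByExpr, TMM scaling, robust quasi-likelihood test, two-sided, no replicate block, Benjamini-Hochberg adjustment over 11616 genes, called at 0.05. Each standard error is the log2 fold change over the square root of its F statistic. Single ratios used exact permutation. On simulated counts for 11446 genes, 65.7% of 1.5-fold, 89.6% of 2-fold and 98.5% of 4-fold changes were recovered, and 4.52% of 177 calls were false. The genes changed numbered 67, 67 and 66 at these folds, a far smaller share than the 39.2% called in the data. No smaller fold was simulated, so the rates do not cover changes as small as those of Pnpla2 and Hilpda. The alternatives were other scalings, DESeq2 1.42.0, limma-voom (limma 3.58.1), 2 filters, transcript rows, a replicate block and leaving out each library. All 10 members were to be named. Of each related list, called genes with non-overlapping groups, at most 6 per direction, were named. Other related genes (Dgat1, Lipe, Pparg, Ppara, Srebf1 and those at 0) were chosen after their values were seen. Ppargc1a and Foxo3 were named beyond the limit of 6, and the uncalled Hsd17b11, Ddhd1, Ddhd2 and Creb1 as holders of the word GAAATGT. The members, lists, motifs and the word GAAATGT were chosen with earlier results of these data known. Promoter sequences are from RefSeq (GRCm38.p6), with all 10 genes matched by symbol.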

Additional observations from a re-analysis of the deposited data

How the results depend on the processing

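Pnpla2 was called lower in all 14 alternative settings and Crebl2 in all 14, with Crebl2 log2 fold changes from -1.94 to -1.85. The number of called members ran from 1 to 3 when 1 library was left out, all of them lowered; with library size alone as the scaling, 1 member (Fitm2) was also called raised. Values near 0 changed sign: Abhd5 to 0.017 with library size alone and to 0.059 without Crebl2 siRNA replicate 2, and Plin2 to -0.028 without Luc siRNA replicate 1 and to -0.0085 without Luc siRNA replicate 3. With each library left out in turn, Abhd5 ran from -0.076 to 0.059 and Plin2 from -0.028 to 0.066. None of these was called, and the cause was not tested. Over all genes, 3670 to 4705 were called across settings, against 4551, and 4712 of the transcript rows tested one by one. The related genes called ran from 19 to 25, against 25. The 4 ratios kept their direction in all 7 settings run for each; with 1 library left out, Plin2 to Plin3 ran from 0.0995 to 0.19, Pnpla2 to Abhd5 from -0.58 to -0.33, Pnpla2 to G0s2 from -0.74 to -0.60 and Pnpla2 to Hilpda from -0.33 to -0.12. The labels do not say that replicate numbers mark pairs, so the numbers were not taken as pairs. Same-numbered libraries of the groups did not deviate together (correlations -0.133, -0.0443 and -0.0847). With the replicate block 3996 genes and the same count of 2 members were called. Low counts limit Bscl2 and Cideb, and bases shared between transcripts reduce what is seen of Pnpla2, Hilpda, Mgll, Bscl2, Cideb and Abhd5.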

Other observations

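Genes that mark other liver or steroid-making cells were mixed in level and in direction of change. Of 6 macrophage markers, the endotoxin co-receptor Cd14, also expressed by hepatocytes, was at 36.2 ± 1.02 CPM in controls and 23.7 ± 2.15 CPM after Crebl2 siRNA (SD, n = 3 each), a called log2 fold change of -0.61, and lysozyme (Lyz2) changed by -0.84 at about 1 CPM and was called in 10 of 13 alternative settings. Cd68 did not pass (0.12, edgeR adjusted p = 0.808), Adgre1 and Csf1r were too low to test, and Ptprc was at 0. Of 6 stellate cell markers, 2 were tested. Desmin (Des) rose from 49.1 ± 4.74 to 62.4 ± 3.39 CPM (SD, n = 3 each), by 0.35 on the log2 scale. The retinol acyltransferase Lrat, which defines retinoid-storing stellate cells, was too low to test. It had 0, 1 and 1 counts with Luc siRNA and 1, 2 and 3 with Crebl2 siRNA. Acta2 and Rgs5 were not tested either, and Pdgfrb was at 0. Col1a1, the collagen gene of that list, had a log2 fold change of -0.22 that did not pass (edgeR adjusted p = 0.146). Cyp11a1, which starts steroid hormone synthesis from cholesterol, was at 3.98 ± 1.37 CPM in controls and 1.355 ± 0.215 CPM after Crebl2 siRNA (SD, n = 3 each). Its called log2 fold change was -1.55. Star, which brings cholesterol to that enzyme, had a log2 fold change of -0.19 that did not pass (edgeR adjusted p = 0.0864). Hsd3b1, also on the steroid list, was at 0 with 192 unique bases.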
